A study of Mus musculus with 6 samples.

Results

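The Schlafen family genes Slfn1, Slfn2, Slfn3, Slfn4, Slfn5, Slfn8 and Slfn9 were examined in primary microglia (PM) by RNA-seq. These 7 genes were chosen by symbol from the 24411 genes in the count tables. They are the protein-coding Schlafen genes, other than Slfn14, of a cluster on mouse chromosome 11. All 7 lay between chr11:82951349-83215154 in mm10, a span of 264 kb in the GENCODE annotation. Slfn1, Slfn2, Slfn3, Slfn4 and Slfn5 were on the plus strand, and Slfn8 and Slfn9 were on the minus strand.

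PM are microglia, the resident macrophages of the brain, and were here shaken off mixed glial cultures made from the pooled brains of 12 ICR mice at postnatal day 3. The 2 groups were 3 libraries of PM given GSKJ4 (10 μM) and 3 of PM given LPS (10 ng/ml) together with the same dose of GSKJ4, with a treatment time of 4 h on the labels. GSK-J4 is an inhibitor of the H3K27 demethylase JMJD3, and LPS is a bacterial endotoxin recognised by TLR4. Both groups carried GSK-J4, so the contrast was that of LPS in the presence of the inhibitor, and PM without GSK-J4 were not analysed here. The study describes the libraries as biological replicates, but with pooled brains the p values measure the spread between libraries, not between mice. It also calls them independent samples and, in the legend of a heat map, independent PM experiments. How the libraries of a group were divided over cultures and pools of brains was not given.

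Schlafen proteins are a family known from the control of lymphocyte and myeloid cell growth and from antiviral defence, and many of the genes are induced by type I interferon. Type I interferons bind the receptor of Ifnar1 and Ifnar2, signal through Jak1 and Tyk2, and drive genes through a complex that holds Stat2 and Irf9 and binds the interferon-stimulated response element (ISRE). TLR4 reaches interferon-β through the adaptor TRIF (Ticam1) and Irf3. The short members Slfn1 and Slfn2 lack the helicase-like region of the long members Slfn5, Slfn8 and Slfn9, while Slfn3 and Slfn4 are of intermediate length. Slfn2 is known for keeping T cells and monocytes in a resting state.

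Slfn2 was the only Schlafen gene that passed the criteria for up-regulation, which were a log2 fold change no smaller than 1.5 and an adjusted p no larger than 0.01 by edgeR. It rose 4.63-fold (95% interval 3.57 to 6.0, n = 3 per group) in LPS + GSK-J4. Slfn5, Slfn8 and Slfn9 were higher in every LPS + GSK-J4 library than in every GSK-J4 library, by 1.51-, 1.79- and 2.01-fold, and did not pass the criteria. Slfn3 was not higher, Slfn4 was close to the limit of detection, and Slfn1 was represented by 1 fragment in all 6 libraries. Of the 7 genes, 5 had enough counts to be tested, 1 was up-regulated and 0 were down-regulated. Among all 10133 genes tested, 3.76% were called, with 2.95% up-regulated and 0.809% down-regulated.

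The promoters of the members are shown first because the cluster holds genes that differed in their response side by side. Each is a RefSeq window of 300 bases, from 250 before to 50 after the start of the gene, on GRCm38.p6 (mm10), and is written on the strand of the gene. All 7 members had such a window, and Slfn8 had a second one. The windows of the gene that was called and of the 3 genes that were higher without being called follow, with the motifs found in capitals (the ISRE core GAAANNGAAA, searched on both strands, and an NF-κB motif). They lie at chr11:83064862-83065161 (Slfn2), chr11:82951852-82952151 (Slfn5), chr11:83020761-83021060 (Slfn8, the first window) and chr11:82991781-82992080 (Slfn9). The RefSeq start of Slfn5 lies inside the gene as GENCODE places it.
Slfn2: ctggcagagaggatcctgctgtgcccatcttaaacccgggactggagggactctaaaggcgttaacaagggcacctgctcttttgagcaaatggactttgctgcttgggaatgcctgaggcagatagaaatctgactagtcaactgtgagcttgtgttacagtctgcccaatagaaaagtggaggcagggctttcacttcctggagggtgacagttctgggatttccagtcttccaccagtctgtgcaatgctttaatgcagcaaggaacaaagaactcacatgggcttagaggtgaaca
Slfn5: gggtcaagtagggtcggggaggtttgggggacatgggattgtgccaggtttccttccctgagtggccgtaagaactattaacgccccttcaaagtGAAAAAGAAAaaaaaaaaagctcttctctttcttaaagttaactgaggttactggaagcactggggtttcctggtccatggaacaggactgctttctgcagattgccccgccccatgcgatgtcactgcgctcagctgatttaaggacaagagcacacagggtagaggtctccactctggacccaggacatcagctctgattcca
Slfn8: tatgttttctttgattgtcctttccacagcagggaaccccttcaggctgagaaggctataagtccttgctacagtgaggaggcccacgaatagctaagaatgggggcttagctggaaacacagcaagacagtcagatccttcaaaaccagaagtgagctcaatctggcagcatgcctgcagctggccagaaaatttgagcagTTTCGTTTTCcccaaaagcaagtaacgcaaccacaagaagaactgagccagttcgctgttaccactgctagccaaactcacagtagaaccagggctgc
Slfn9: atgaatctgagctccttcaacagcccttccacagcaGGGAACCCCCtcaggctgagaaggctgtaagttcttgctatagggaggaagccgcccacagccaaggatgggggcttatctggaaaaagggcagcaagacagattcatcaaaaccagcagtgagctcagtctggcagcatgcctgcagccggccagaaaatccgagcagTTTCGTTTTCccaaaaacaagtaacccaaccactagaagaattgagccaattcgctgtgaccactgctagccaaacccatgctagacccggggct

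The ISRE core was present in 3 of the 7 members, Slfn5, Slfn8 and Slfn9, against 3.99% of all 27025 genes with a RefSeq promoter of this length (3.44% of 32851 promoters). In Slfn5 it began 155 bases before the gene start, on the strand of the gene, as GAAAAAGAAA within a run of A. In Slfn8 and Slfn9 it lay on the opposite strand as GAAAACGAAA, beginning 48 and 45 bases before the start. The windows of Slfn8 and Slfn9 were identical at 84.9% of 292 aligned bases, so that their matches are not independent. The window of Slfn2, the only member called, held none of the 3 motifs searched, and neither did those of Slfn3 and Slfn4. The gamma-activated sequence TTCNNNGAA was found in 0 of 7 members, against 9.55% of all genes (8.30% of promoters). The NF-κB motif was found in Slfn1 and Slfn9, against 9.55% of all genes (8.46% of promoters), and in Slfn9 its letters read as a match on both strands. These matches are letters in a window and were not measured as binding.

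Slfn2 (ENSMUSG00000072620.3, chr11:83065112-83070678, plus strand) was the most abundant member. It was counted by 461, 400 and 169 fragments in the GSK-J4 libraries and by 1169, 1118 and 803 in the LPS + GSK-J4 libraries. The corresponding levels, in CPM (counts relative to the library size, here scaled by the trimmed mean of M values, TMM), were 109, 89.8 and 62.0, and 456, 427 and 332. The groups did not overlap, and the lowest LPS + GSK-J4 library was far above the highest GSK-J4 library. The mean level was 86.8 ± 23.5 CPM (SD, n = 3) with GSK-J4 alone and 405 ± 65.1 CPM (SD, n = 3) in LPS + GSK-J4. The log2 fold change was 2.21 (SE 0.18, adjusted p = 1.60e-07, edgeR quasi-likelihood test), and 1.11% of the genes tested had a larger one. The median log2 fold change was 0.84 over the 5 members tested and 0.00 over all genes tested.

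**Figure D1:**
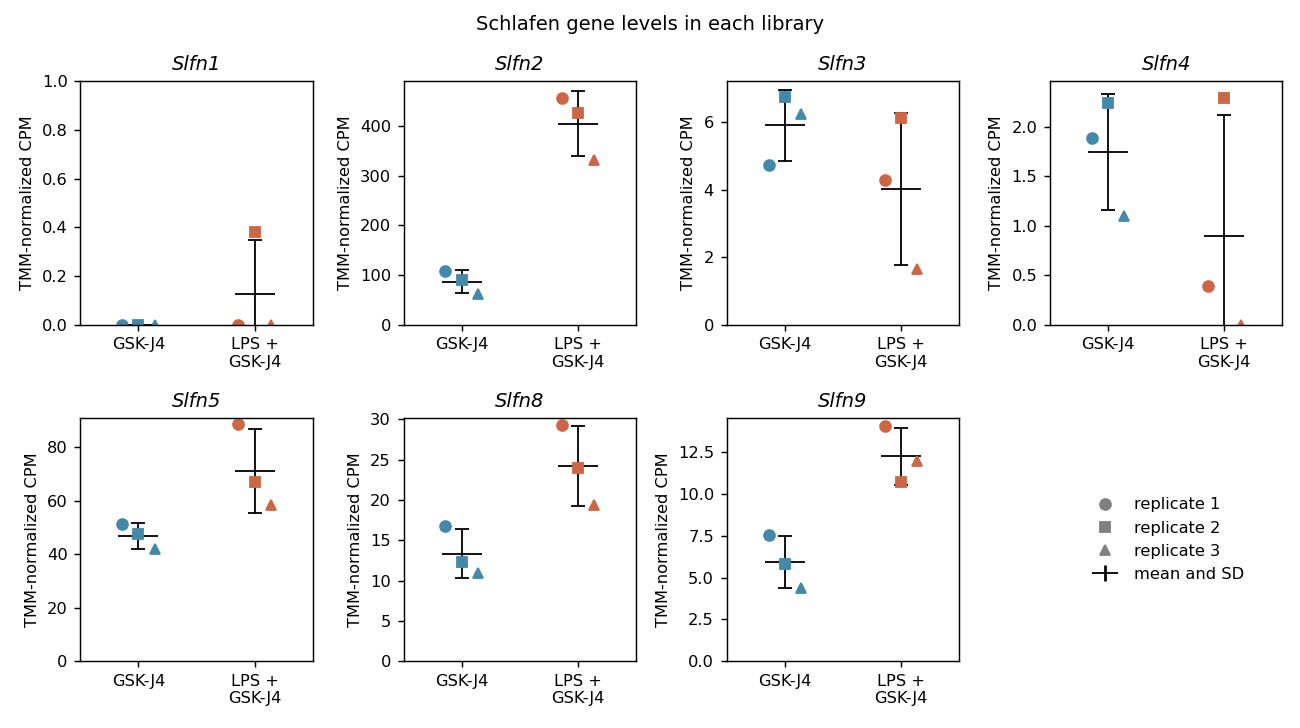
TMM-normalized level (CPM, linear axes from 0, scaled for each gene) of the 7 Schlafen genes in each library, with the mean and SD (n = 3) of each group in black. The Slfn2 libraries were at 62.0 to 109 CPM with GSK-J4 alone and at 332 to 456 CPM in LPS + GSK-J4, the groups were also apart for Slfn5, Slfn8 and Slfn9, and they overlapped for Slfn1, Slfn3 and Slfn4.

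Slfn5 (ENSMUSG00000054404.13, chr11:82951349-82964840, plus strand), a long member, was the second most abundant. It was at 51.2, 47.6 and 41.8 CPM with GSK-J4 alone and at 88.6, 66.8 and 58.2 CPM in LPS + GSK-J4. The groups did not overlap, and replicate 3 was the lowest library of each. The log2 fold change was 0.60 (SE 0.16, 95% interval 0.25 to 0.95), with an adjusted p of 0.0149 by edgeR, so that the interval ended below the threshold of 1.5. Before scaling, the fragments on Slfn5 summed to 543 over the 3 GSK-J4 libraries and to 543 over the 3 LPS + GSK-J4 libraries. The difference in CPM between the groups of Slfn5 therefore rested on how the libraries were scaled. With total counts as library size its log2 fold change was 0.03, which was 0.59 relative to the median of all genes tested.

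Slfn8 (ENSMUSG00000035208.16, chr11:83002158-83020810, minus strand), another long member, was at 16.8, 12.3 and 11 CPM with GSK-J4 alone and at 29.3, 24.0 and 19.4 CPM in LPS + GSK-J4. Its log2 fold change was 0.84 (SE 0.22, 95% interval 0.37 to 1.31, adjusted p = 0.0116 by edgeR). Slfn9 (ENSMUSG00000069793.12, chr11:82978390-82991830, minus strand), which lies next to Slfn8, was at 7.55, 5.84 and 4.40 CPM with GSK-J4 alone and at 14.1, 10.7 and 12 CPM in LPS + GSK-J4. Its log2 fold change was 1.01 (SE 0.28, 95% interval 0.42 to 1.59, adjusted p = 0.0143 by edgeR). In both genes each LPS + GSK-J4 library was above each GSK-J4 library, and the interval reached the threshold of 1.5 in Slfn9 but not in Slfn8. With Slfn2 and Slfn5, 4 members had groups that lay apart in this direction, as did 19.8% of all genes tested, and 0 members had groups that lay apart in the other direction, as did 18.4% of all genes.

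Slfn3 (ENSMUSG00000018986.10, chr11:83191330-83215154, plus strand) was at 4.72, 6.73 and 6.23 CPM with GSK-J4 alone and at 4.29, 6.11 and 1.65 CPM in LPS + GSK-J4. The groups overlapped, and the low level of LPS + GSK-J4 replicate 3 came from 4 fragments. The log2 fold change was -0.53 (SE 0.39, 95% interval -1.36 to 0.30, adjusted p = 0.373 by edgeR), which leaves room for a change in either direction. Without replicate 3 of both groups, an alternative chosen after seeing the data, it was -0.13 (adjusted p = 0.845 by edgeR).

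Slfn4 (ENSMUSG00000000204.16, chr11:83175186-83190216, plus strand), a member known from macrophages and monocytes, had too few counts to be tested. It had 8, 10 and 3 fragments with GSK-J4 alone and 1, 6 and 0 in LPS + GSK-J4. The exact permutation test on CPM (two-sided) gave p = 0.4 (n = 3 per group). It can give no p under 0.1 with so few libraries, so it could not have detected a difference. The edgeR fit without a filter gave a log2 fold change of -1.01 (SE 0.72, 95% interval -2.42 to 0.41). This fold change rested on single libraries. Without LPS + GSK-J4 replicate 2, which held 6 of the 7 fragments of its group, it was -3.0 (adjusted p = 0.0672 by edgeR). Without LPS + GSK-J4 replicate 3 it was -0.47 (adjusted p = 0.717 by edgeR). Slfn1 (ENSMUSG00000078763.2, chr11:83116849-83122670, plus strand) had 1 fragment, in LPS + GSK-J4 replicate 2, and 0 in the other 5 libraries. A count of 0 allows up to 3 fragments, which is 0.673 to 1.24 CPM in these libraries, so no fold change is given for Slfn1.

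**Figure D2:**
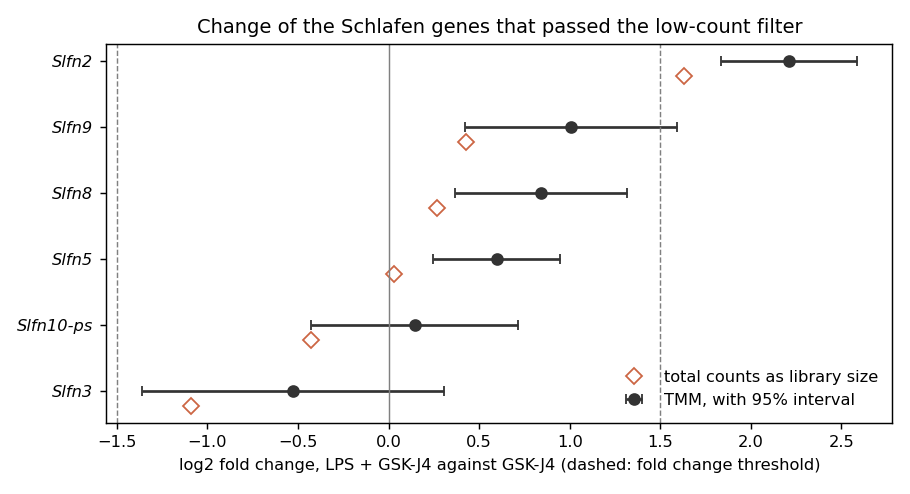
Log2 fold change of LPS + GSK-J4 against GSK-J4 for the 5 members tested and the pseudogene Slfn10-ps, with TMM scaling and its 95% interval (filled circles) and with total counts as library size (open diamonds). With TMM only Slfn2 had an interval wholly above the threshold of 1.5 (dashed), and with total counts Slfn5 was at 0.03 and Slfn10-ps at -0.43.

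The size of each change rested on how the libraries were scaled. The libraries held 2597505 to 3472716 fragments on genes, and a ribosomal precursor feature, Rn45s, took 22.2 to 32.4% of them with GSK-J4 alone and 45.8 to 48.1% in LPS + GSK-J4. Outside Rn45s and the other ribosomal features Mir6236 and Lars2, the libraries held 1499693 to 2443344 fragments with GSK-J4 alone. In LPS + GSK-J4 they held 1374377 to 1444886. TMM factors were 1.05 to 1.31 with GSK-J4 alone and 0.821 to 0.832 in LPS + GSK-J4. With the total counts as library size, an alternative chosen after seeing the data, the median over all genes moved from 0.00 to -0.57 and the values of all 5 members tested moved with it. Over all genes 124 were then up-regulated and 354 down-regulated, against 299 and 82 with TMM. The log2 fold change of Slfn2 was then 1.63 (adjusted p = 3.16e-06 by edgeR) and still passed the criteria, while those of Slfn5, Slfn8 and Slfn9 were 0.03, 0.27 and 0.43 (adjusted p = 0.916, 0.353 and 0.229 by edgeR). Slfn3 was at -1.09 (SE 0.39, adjusted p = 0.0202 by edgeR) with total counts and was not called. Relative to the median of all genes, Slfn2, Slfn5, Slfn8 and Slfn9 were at 2.19, 0.59, 0.83 and 1.00, and Slfn3 was at -0.53. Removing Rn45s and the other ribosomal features Mir6236 and Lars2 before TMM left the calls of the members as they were.

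Comparisons between members within a library do not use the library size. Slfn2 took 57.0, 54.6 and 49.0% of the counts on the 7 genes in the GSK-J4 libraries and 77.0, 79.5 and 78.4% in the LPS + GSK-J4 libraries, and the groups did not overlap. The mean share of Slfn2 was 53.5% ± 4.10 (SD, n = 3) with GSK-J4 alone and 78.3% ± 1.26 (SD, n = 3) in LPS + GSK-J4. The exact permutation test (two-sided) gave p = 0.1, the smallest it can give with 3 libraries against 3. The shares of Slfn5, Slfn8 and Slfn9 were 29.6, 8.33 and 3.66% with GSK-J4 alone and 13.7, 4.67 and 2.40% in LPS + GSK-J4, also without overlap. Shares are parts of a whole, so the other members together had to take less as Slfn2 took more. Their smaller shares are no separate result, and the CPM of Slfn5, Slfn8 and Slfn9 were higher in LPS + GSK-J4.

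The ratio of Slfn2 to Slfn5 counts was 1.83 ± 0.325 (SD, n = 3) with GSK-J4 alone and 5.74 ± 0.621 (SD, n = 3) in LPS + GSK-J4, without overlap (exact permutation test, two-sided, p = 0.1). This ratio is the same under any scaling of the libraries. The ratios of Slfn2 to Slfn8 and to Slfn9 went from 6.47 to 16.8 and from 14.6 to 33.4, again without overlap. The ratio of Slfn8 to Slfn9 was 2.28 ± 0.199 with GSK-J4 alone and 1.98 ± 0.326 in LPS + GSK-J4 (SD, n = 3), and its groups overlapped (exact permutation test, two-sided, p = 0.3). These 4 ratios were the ratios computed, and with a smallest p of 0.1 no adjustment could bring them under a threshold of 0.05.

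**Figure D3:**
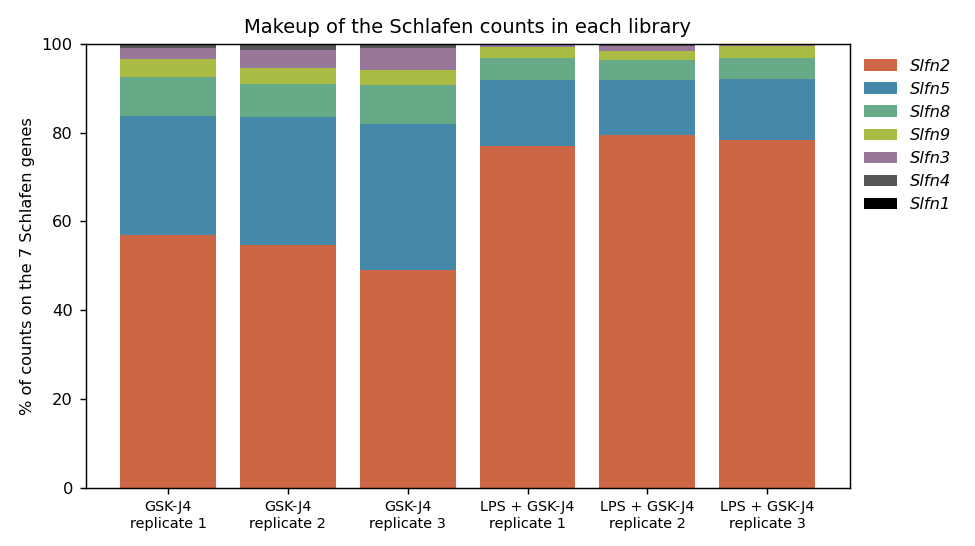
Share (%) of the counts on the 7 Schlafen genes that each member took in each library. Slfn2 took 49.0 to 57.0% with GSK-J4 alone and 77.0 to 79.5% in LPS + GSK-J4, and the share of every other member with more than 1 fragment was smaller in the latter group. A smaller share here goes with the larger share of Slfn2 and does not by itself show a lower level. The CPM of Slfn5, Slfn8 and Slfn9 were higher in LPS + GSK-J4. Mean CPM was lower for Slfn3 (5.90 and 4.02) and Slfn4 (1.74 and 0.893), with groups that overlapped.

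Levels per length, in CPM per kb of merged exons, give the order of the members within a group. In GSK-J4 the order was Slfn2 (52.2 ± 14.1), Slfn5 (7.41 ± 0.750), Slfn8 (3.27 ± 0.735), Slfn3 (1.73 ± 0.308), Slfn9 (0.994 ± 0.264), Slfn4 (0.440 ± 0.148) and Slfn1 (0), all as mean ± SD with n = 3. No neighbours in this order had overlapping ranges. A count of 0 allows up to 3 fragments, however, so the place of Slfn1 below Slfn4 is not resolved. In LPS + GSK-J4 it was Slfn2 (243 ± 39.1), Slfn5 (11.3 ± 2.48), Slfn8 (5.93 ± 1.21), Slfn9 (2.05 ± 0.285), Slfn3 (1.18 ± 0.657), Slfn4 (0.225 ± 0.309) and Slfn1 (0.0682 ± 0.118). Slfn9 and Slfn3 had changed places, and the ranges of Slfn3 and Slfn4 and those of Slfn4 and Slfn1 overlapped. On this scale Slfn2 made up 78.6% ± 2.87 of the family with GSK-J4 alone and 92.2% ± 0.440 in LPS + GSK-J4 (SD, n = 3).

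The members are related copies, and fragments that fit more than 1 place were not counted. Of all 100-base windows in the transcripts of Slfn2, 0.128% also occurred in another gene outside its locus, and the shares were 0.238% for Slfn5, 0.271% for Slfn4 and 0% for Slfn1. They were 2.92% for Slfn3, 3.38% for Slfn8 and 3.71% for Slfn9, so that the counts of these 3 genes, and the split between Slfn8 and Slfn9, are less certain. With 50-base windows the shares were 16.0% for Slfn3, 14.6% for Slfn8, 11.9% for Slfn9, 11.3% for Slfn4, 4.27% for Slfn2, 3.68% for Slfn5 and 0.606% for Slfn1. Slfn3 and Slfn4 shared most with each other in 50-base windows and with the pseudogene Gm11427 in 100-base windows. Slfn8 and Slfn9 shared most with the pseudogene Slfn10-ps at both lengths. Slfn10-ps was at 9.17 ± 2.25 CPM with GSK-J4 alone and 10.3 ± 1.94 CPM in LPS + GSK-J4 (SD, n = 3), with a log2 fold change of 0.14 (SE 0.27, adjusted p = 0.752 by edgeR) under TMM and of -0.43 with total counts.

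Of the remaining Schlafen features, Slfn14 had 0 fragments in all 6 libraries, and Slfnl1, on chromosome 4, had 3 in all, from LPS + GSK-J4. Slfn5os, an antisense gene that overlaps Slfn5, had 0 fragments on its own strand and 52 on the strand of Slfn5. Fragments on the strand opposite to a member numbered 15 for Slfn5, 14 for Slfn2 and 5 or fewer for each of the others over all libraries, against 1086 and 4120 sense fragments for Slfn5 and Slfn2.

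Along the chromosome, Slfn2 stood between genes that were not called. Within 500 kb of the cluster, 60 other genes were annotated, 33 were in the count tables and 17 were tested. Of these, 5 were up-regulated and 0 down-regulated under TMM, with a median log2 fold change of 0.17 under TMM and of -0.40 with total counts. With total counts 4 were up-regulated and 1 down-regulated, and 1 was also down-regulated with DESeq2 size factors. The 5 up-regulated under TMM were the chemokine genes Ccl3, Ccl4, Ccl5 and Ccl9, with log2 fold changes of 3.60, 5.82, 4.03 and 1.64, and Heatr9, which was listed at 0 in every GSK-J4 library and at 7.08 ± 0.911 CPM (SD, n = 3) in LPS + GSK-J4. Heatr9, the nearest of them, began 457 kb from the start of Slfn2. The nearest tested gene on either side of the members was Nle1 (log2 fold change 0.87, SE 0.34, adjusted p = 0.0787 by edgeR) and AI662270 (-0.58, SE 0.23, adjusted p = 0.0813 by edgeR), and neither was called.

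**Figure D4:**
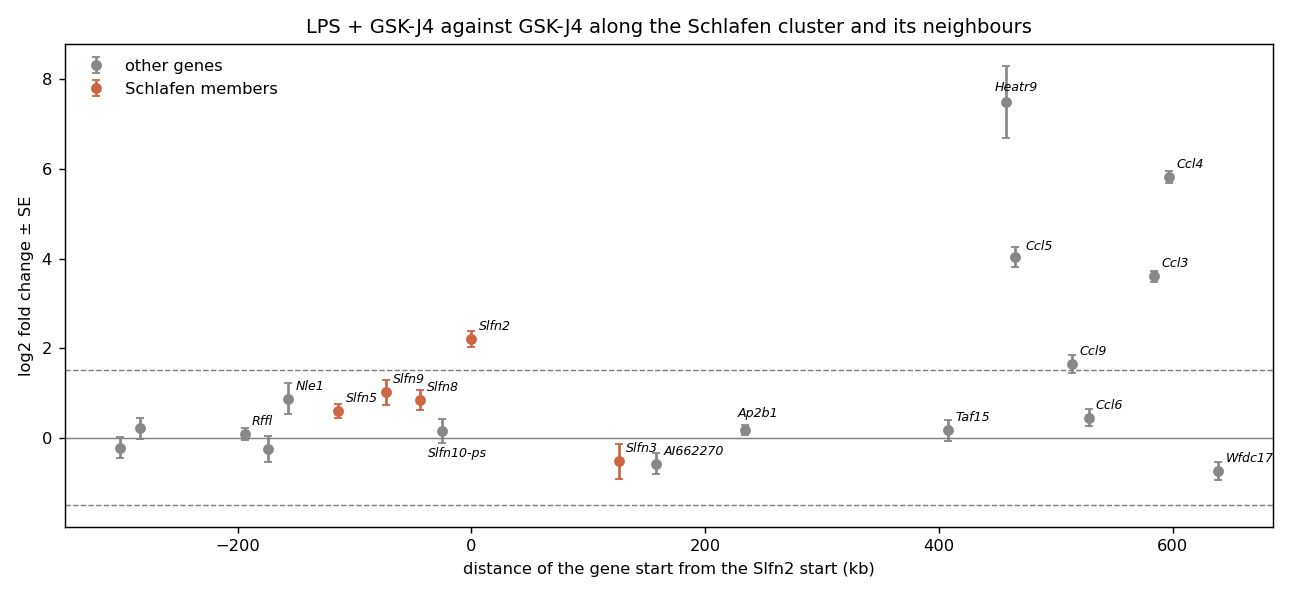
Log2 fold change ± SE of the members (orange) and the other tested genes (grey) within 500 kb of the cluster, by the distance of their start from that of Slfn2 in kb (3 genes on the left are drawn without a name, and 1 tested gene is not drawn). Slfn2 stood at 2.21 between genes that were not called, and the next genes above the threshold of 1.5 (dashed) were Heatr9 and chemokine genes 457 kb or more away. Heatr9 had no GSK-J4 count, so that its fitted value is no measure of the size.

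The genes through which interferon acts were detected in both groups. Ifnb1, which encodes interferon-β, had 1 fragment in all GSK-J4 libraries and 673 in LPS + GSK-J4, at 88.3 ± 9.80 CPM (SD, n = 3). No Ifna gene was counted by more than 2 fragments in all. Of 30 genes of type I interferon signalling 15 were tested, 4 were up-regulated (Ifnb1, Irf1, Socs1 and Usp18, the last also an interferon-stimulated gene of the list given later) and 0 down-regulated. Their median log2 fold change was 0.37 under TMM and -0.19 with total counts. The receptor and kinase genes Ifnar1, Ifnar2, Jak1 and Tyk2 had log2 fold changes between -0.24 and 0.07 under TMM, with adjusted p from 0.173 to 0.907 by edgeR.

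Stat2, Irf9 and Irf3 had log2 fold changes of 0.45, 0.62 and 0.37 and were not called (adjusted p = 0.113, 0.0112 and 0.179 by edgeR). Irf7, which amplifies interferon production, was at 9.50 ± 0.377 CPM with GSK-J4 alone and 24.7 ± 4.92 CPM in LPS + GSK-J4 (SD, n = 3), a log2 fold change of 1.37 (adjusted p = 0.000225 by edgeR) that was under the fold threshold. Of 9 genes of the TLR4 to TRIF branch, 0 were up-regulated and 1 was down-regulated, Ticam2, an adaptor of TLR4, with a log2 fold change of -1.76 (SE 0.17). The median of this branch was 0.31 under TMM and -0.25 with total counts.

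Of 50 interferon-stimulated genes other than Schlafen genes, 47 were tested, 24 were up-regulated and 0 were down-regulated, with a median log2 fold change of 1.54. With total counts 17 were up-regulated, with a median of 0.97. The log2 fold changes of the genes tested ran from -0.20 (Samhd1), -0.18 (Bst2) and 0.09 (Adar) to 6.58 (Ifit1), 6.59 (Rsad2) and 7.37 (Gbp5) under TMM. The change of Slfn2 was smaller than that of 17 of them. Slfn5, Slfn8 and Slfn9 lay among the genes of this list that were not called, such as Znfx1 (0.83), Dhx58 (0.97) and Ifitm3 (0.57), which were picked after their values were seen.

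**Figure D5:**
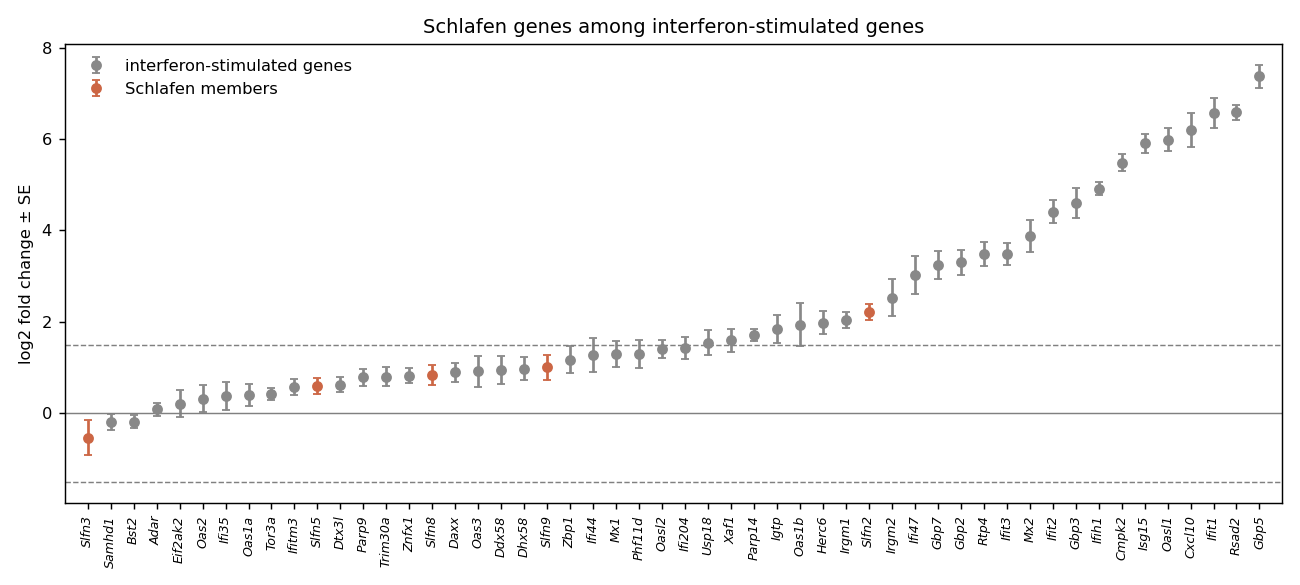
Log2 fold change ± SE under TMM of the 47 interferon-stimulated genes tested (grey) and the 5 Schlafen genes tested (orange), ordered by value, with the thresholds of 1.5 in either direction dashed. Slfn2 (2.21) was within the upper part of the order, Slfn9, Slfn8 and Slfn5 (1.01, 0.84 and 0.60) were below the threshold and Slfn3 (-0.53) was at its lower end.

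The genes whose levels ran most like those of Slfn2 over the 6 libraries, by Pearson's r of log2 CPM, were Tnip3 (r = 0.9996), Malt1 (r = 0.9978) and Bcl2a1a (r = 0.9974). For Slfn5 they were Prkx, Actl6a and Ddx28 (r = 0.9991 to 0.9955), for Slfn8 Dmtf1, Tspan6 and Zcrb1 (r = 0.9924 to 0.9871), for Slfn9 Tlr2, Filip1l and Tank (r = 0.9957 to 0.9911) and for Slfn3 Ccdc77, Auh and Pacsin2 (r = 0.9925 to 0.9887). The 6 libraries fall into 2 groups, so a high r mostly reflects the difference between the groups, and 787 genes had an r of at least 0.9 with Slfn2. These are descriptions of 6 libraries of shared depth and scaling. Slfn2, Slfn5, Slfn8 and Slfn9 had an r of 0.91 to 0.97 with each other, and Slfn3 had an r of -0.58 to -0.26 with them.

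Replicate 3 stood apart from the other libraries of both groups on the second principal component (16.4% of the variance), at -15.8 and -29.6 against 2.97 to 21.4. It had the lowest Slfn2, Slfn5 and Slfn8 levels of both groups. Without replicate 3 of both groups the log2 fold changes of Slfn2, Slfn5, Slfn8 and Slfn9 were 2.16, 0.66, 0.88 and 0.89, and Slfn2 remained the only member called. Without LPS + GSK-J4 replicate 3 alone, or any other single library, Slfn2 was called with a log2 fold change between 2.03 and 2.40.

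The cells were checked against markers of microglia and of other cells. All 14 microglial markers were tested and 0 were called, while with total counts 1 was down-regulated (Tmem119), and their summed level was 4615 to 4880 CPM with GSK-J4 alone and 3681 to 3946 CPM in LPS + GSK-J4. Of 7 astrocyte markers tested 2 were up-regulated (Gfap and Sox9, neither of them with total counts), with a summed level of 57.5 to 60.5 CPM with GSK-J4 alone and 139 to 169 CPM in LPS + GSK-J4. The summed oligodendrocyte markers were at 213 to 243 and 389 to 439 CPM, the fibroblast markers at 80.1 to 281 and 138 to 427 CPM and the neuronal markers at 6.60 to 7.08 and 14.9 to 16.8 CPM. The neuronal sum came mostly from Tubb3 (5.27 and 13.9 CPM), the only neuronal marker tested. Of the others, at 8 fragments or fewer per group, Snap25 and Nefl were higher and Rbfox3 and Syt1 lower in LPS + GSK-J4. Of 7 oligodendrocyte markers tested 0 were called, with a median log2 fold change of 1.08, and Cnp was at -0.01. The part of these other cells in the Schlafen levels was not tested, and in these bulk libraries fewer cells of a type and less RNA per cell cannot be told apart. T cells, B cells and neutrophils are other cells in which Schlafen genes are known. Their markers were at 4.95 CPM or less, 1.14 CPM or less and 5.07 CPM or less in sum. Cd3d, Cd3g, Cd8a, Ms4a1, Pax5, S100a9, Camp and Ngp were at 0 in all libraries, and Ly6g was not among the genes counted. Cd4 (49 fragments with GSK-J4 alone and 17 in LPS + GSK-J4) and S100a8 (41 and 26) were tested and not called. Lck had 4 and 17 fragments and Elane 0 and 4, in the same order.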

How the data were processed

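The authors trimmed paired reads of directional, ribosome-depleted libraries with Trimmomatic (0.33), aligned them to mm10 with STAR (2.5.1) and deposited raw counts per gene in unstranded, same-strand and reverse-strand columns. The annotation behind the counts was not given in the sources used here. The reverse-strand column, the larger of both strands, was used. Groups came from the titles on the labels.

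Counts were tested in R 4.3.3 with edgeR 4.0.16 (TMM, filterByExpr with a minimum count of 10 and total of 15, robust quasi-likelihood test, no covariates), with Benjamini-Hochberg adjustment over all 10133 genes. Errors are SD unless SE is named, and floors cover counting error only. Besides the members, interferon pathway genes, the 3 highest and 3 lowest interferon-stimulated genes, called or adjacent genes within 500 kb and the 3 genes most alike each member were named. DESeq2 1.42.0 and other filters, scalings and sample sets were alternatives. Lengths and positions are from GENCODE, which matched 23334 of 24411 genes, and promoters from RefSeq.

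The values of 1 neighbouring gene and 1 marker gene are not reported here. The members and gene lists were chosen with earlier results of these data known. Python 3.11.15 was used with scipy 1.17.1 for exact tests, numpy 2.4.6, pandas 2.3.3, and, for figures, matplotlib 3.10.9.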

Additional observations from a re-analysis of the deposited data

How the results depend on the processing

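Slfn2, Slfn3, Slfn4, Slfn5, Slfn8 and Slfn9 kept their direction under all alternatives that gave a value, and Slfn2 was called under all 15 of its alternatives. The number of members called was 1 in all alternatives except thresholds of 0.05 for the adjusted p and 1 for the log2 fold change, which called 2 (Slfn2 and Slfn9). Over all genes, these wider thresholds called 1129 genes, and a filter of at least 10 counts in every library called 232 of 8594 tested, against 381. Leaving out each library in turn gave 351 to 470 genes called and 1 member. The adjusted p of Slfn5 ran from 0.000108 to 0.916 over its alternatives, that of Slfn8 from 0.000532 to 0.353 and that of Slfn9 from 0.00392 to 0.229, the highest in each case with total counts as library size.

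With the replicate number as a block, 1 member and 396 genes were called, and the adjusted p of Slfn5, Slfn8 and Slfn9 was 0.000108, 0.000532 and 0.00392 (edgeR), each with a log2 fold change under 1.5. The deviations of libraries with the same number correlated at r = -0.0102, 0.117 and 0.295. The replicate 3 libraries correlated best with each other, while replicates 1 and 2 did not all match their own number. The numbers were therefore not taken as pairs. Replicates 1 and 2 differed least within each group (chi-square over degrees of freedom 2.12 with GSK-J4 alone, 2.32 in LPS + GSK-J4). Pairs with replicate 3 gave 12.2 and 12.5 with GSK-J4 alone and 5.81 and 5.88 in LPS + GSK-J4. The best match could thus hardly tell replicate 1 from replicate 2. Whether the replicate 3 libraries shared a source was not tested. The order of the per-length levels held under all 8 alternatives, and the share of Slfn2 was 51.8 to 55.8% with GSK-J4 alone and 77.7 to 78.9% in LPS + GSK-J4. Slfn1, Slfn3 and Slfn4 had no value with at least 10 counts in every library. The depth left changes of Slfn1, Slfn3 and Slfn4 undetermined.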
